A study of Mus musculus with 6 samples.

Results

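The genes described here are 36 genes of the epithelial cell: cadherins and keratins, parts of desmosomes and tight junctions, membrane proteases with their inhibitors, trafficking proteins, and the splicing and transcription factors that accompany them. They were chosen by symbol, with claudins left out, because epithelial genes were higher with both inhibitors in an earlier look at these data. All 36 were found among the 46078 genes of the deposited tables. The RNA came from mesoderm explants, cut from E7.25 mouse embryos after trypsin and pancreatin, attached to fibronectin for 3 to 4 h and harvested at 27 h of culture (24 h in the series description). The groups were explants treated for 16 h with 1 µM of a compound the labels call PD (2 libraries), explants treated for 16 h with 10 µM YZ9, known as an inhibitor of the glycolytic regulator PFKFB3 (2 libraries), and control explants (2 libraries). The labels give all 6 libraries as WT, whereas the series description names TCF/Lef:H2B-GFP reporter mice as the source, an allele that all groups would share. Neither the vehicle of the controls nor the number of embryos behind each library is given in the sources used here, so differences between libraries may in part be technical.

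In an epithelium, E-cadherin joins neighbouring cells, desmosomes anchor keratin filaments at the membrane, and tight junctions seal the space between cells and separate the apical from the basolateral surface. During gastrulation, epiblast cells lose this organisation when they pass through the primitive streak and become mesoderm. The change is known to involve repressors of the Snail and ZEB families, which bind E-boxes with the letters CAGGTG in the promoters of epithelial genes, while Grainyhead-like and OVOL factors and the splicing regulators ESRP1 and ESRP2 favour the epithelial state.

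Because these repressors act through promoter E-boxes, the promoters of the genes were read first. Promoter windows from 250 bases before to 50 bases after the gene start (RefSeq, GRCm38.p6) were matched by symbol for 23 of the 36 genes, in 28 windows. The E-box letters CAGGTG, read on both strands, occurred in the windows of 16 of the 23 genes (69.6%), against 22.1% of 17492 protein-coding genes and 20.2% of all 32851 windows. The same 6 letters in reverse order, GTGGAC, occurred in 13.0% of the 23 genes and in 12.6% of protein-coding genes. A Grainyhead-type motif, AACNNGTT, occurred in 2 of the 23 genes (8.7%, against 4.71% of protein-coding genes), and an AP-1 motif, TGANTCA, in 2 of 23 (8.7%, against 8.12%). Median GC content was 61.8% in the windows of these genes and 56.3% in those of protein-coding genes, and no test was made of the motif counts. Matches of letters describe the windows and do not show that a factor binds there. The windows shown hold repeated E-boxes in Epcam, Spint2, Ap1m2, Crb3 and Grhl3, and Spint1 is shown as a gene of the group whose window holds an AP-1 motif and no such E-box. Capitals mark the E-box, in either orientation, and in Spint1 the AP-1 motif.
Epcam (chr17:87635729-87636028, plus strand): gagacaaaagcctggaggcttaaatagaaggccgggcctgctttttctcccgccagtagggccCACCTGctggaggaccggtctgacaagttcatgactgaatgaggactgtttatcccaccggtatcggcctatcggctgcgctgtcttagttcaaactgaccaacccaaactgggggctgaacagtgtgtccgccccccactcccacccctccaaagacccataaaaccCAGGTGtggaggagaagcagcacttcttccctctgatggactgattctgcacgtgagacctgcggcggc
Spint2 (chr7:29281928-29282227, minus strand): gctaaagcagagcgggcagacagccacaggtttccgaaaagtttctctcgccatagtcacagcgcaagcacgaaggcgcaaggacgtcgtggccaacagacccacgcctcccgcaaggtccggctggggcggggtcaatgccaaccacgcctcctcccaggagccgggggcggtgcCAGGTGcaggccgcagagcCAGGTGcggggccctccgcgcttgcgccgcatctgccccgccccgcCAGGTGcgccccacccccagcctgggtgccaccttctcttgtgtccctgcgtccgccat
Ap1m2 (chr9:21312284-21312583, minus strand): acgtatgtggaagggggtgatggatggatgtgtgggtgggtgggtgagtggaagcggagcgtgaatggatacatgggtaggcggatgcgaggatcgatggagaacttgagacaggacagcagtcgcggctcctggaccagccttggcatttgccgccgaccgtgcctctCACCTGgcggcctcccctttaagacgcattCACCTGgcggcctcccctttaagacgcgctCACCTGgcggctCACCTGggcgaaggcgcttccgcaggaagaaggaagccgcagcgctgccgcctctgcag
Crb3 (chr17:57061951-57062250, plus strand): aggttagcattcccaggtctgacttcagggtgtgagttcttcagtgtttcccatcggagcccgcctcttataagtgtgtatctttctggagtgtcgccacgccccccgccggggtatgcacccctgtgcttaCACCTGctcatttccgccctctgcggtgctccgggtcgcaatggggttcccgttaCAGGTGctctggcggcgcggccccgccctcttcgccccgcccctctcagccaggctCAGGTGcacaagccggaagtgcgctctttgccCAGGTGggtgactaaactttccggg
Grhl3 (chr4:135573583-135573882, minus strand): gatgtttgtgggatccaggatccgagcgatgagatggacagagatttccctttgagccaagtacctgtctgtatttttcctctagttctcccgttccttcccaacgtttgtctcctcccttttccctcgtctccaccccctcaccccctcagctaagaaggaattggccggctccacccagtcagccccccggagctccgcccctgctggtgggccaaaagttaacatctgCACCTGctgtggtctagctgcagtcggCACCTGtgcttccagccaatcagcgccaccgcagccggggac
Spint1 (chr2:119237110-119237409, plus strand): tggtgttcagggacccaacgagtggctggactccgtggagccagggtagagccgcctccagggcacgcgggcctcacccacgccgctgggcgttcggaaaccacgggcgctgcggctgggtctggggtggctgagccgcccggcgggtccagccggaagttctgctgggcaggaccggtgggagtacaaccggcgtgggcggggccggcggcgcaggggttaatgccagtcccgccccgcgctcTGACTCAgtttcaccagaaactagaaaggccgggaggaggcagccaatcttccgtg
Ap1m2 and Crb3 held 4 E-boxes each within the window, Spint2 held 3, and Epcam and Grhl3 held 2. Among windows not shown, Lsr held 4 and Dsp 1, and the levels of both genes overlapped between treated and control libraries. Cdh1 was among the genes without a matched window. A further start site listed for Crb3 has an overlapping window with the same matches.

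**Figure D1:**
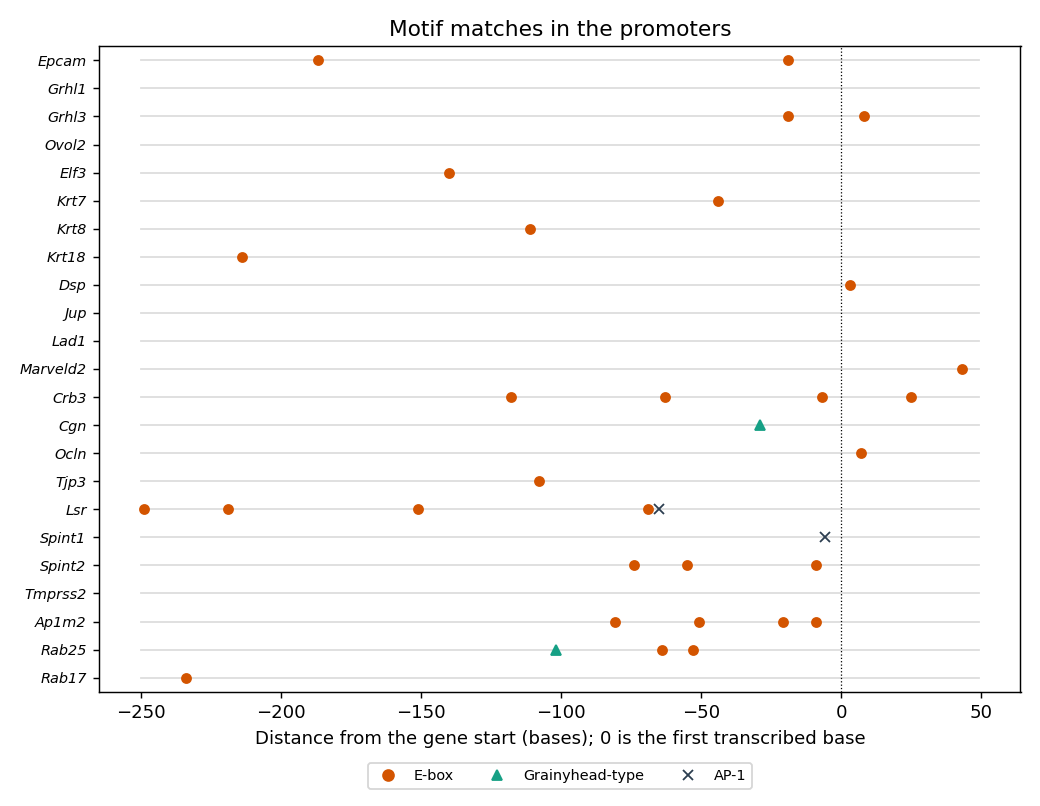
Positions of motif matches in the promoter windows of 23 epithelial genes (first start site listed for each gene); the horizontal axis is the distance in bases from the gene start, and symbols mark the E-box, the Grainyhead-type motif and the AP-1 motif. E-box matches fall in the windows of 16 of the 23 genes, on both sides of the start site.

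Total counts were between 21253194 and 27810161 per library. The 36 genes took 1.22% and 0.813% of all counts in the PD libraries, 0.842% and 0.667% in the YZ9 libraries and 0.670% and 0.547% in the controls, and Krt8, Krt18 and Krt19 made up most of these sums. Levels are given as CPM (counts relative to the TMM-scaled library size) for each library, replicate 1 first, and each SD is that of the 2 libraries. Of the 36 genes, 27 had both PD libraries above both controls and 22 had both YZ9 libraries above both controls, against 19.2% and 21.1% of the 15568 genes tested. For 21 genes both conditions held, against 8.4% of tested genes. The genes were chosen on these contrasts, so the counts describe the choice and are not evidence for it, and no test was made of either contrast for these genes. The median difference from control in log2 CPM (prior count 2) was 2.37 for PD, with a range of -0.32 to 5.81 (the highest, that of Tmprss2, rests on 3 control counts in all), and 1.89 for YZ9, with a range of -1.46 to 5.23. Over all genes tested the median difference was -0.00197 for PD and 9.06e-05 for YZ9. With the 3 genes that had 0 control counts set to a floor of 3 counts over the control group, the medians were 2.44 and 1.99. Both comparisons use the same 2 control libraries. In RNA from whole explants, more cells of a type and more RNA per cell cannot be told apart. Of the 36 genes, 33 passed the filter on low counts, 7 of them with no control library above the filter's level of 0.368 CPM and 6 with 1.

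The adhesion genes separated into 2 that were scarce in controls and 1 that was not. Cdh1, which encodes E-cadherin, had 79.8 and 21.6 CPM with PD, 113 and 30.7 CPM with YZ9 and 1.84 and 3.80 CPM in controls. Its mean was 50.7 ± 41.1 CPM with PD, 71.6 ± 57.9 CPM with YZ9 and 2.82 ± 1.39 CPM in controls (SD, n = 2 each), so every treated library lay above both controls, while the libraries within each inhibitor group differed several-fold. Epcam, a cell adhesion molecule of epithelial surfaces, had 51.9 and 9.22 CPM with PD, 38.4 and 17.6 CPM with YZ9 and 0.862 and 2.52 CPM in controls, again with no overlap. Cdh3, the P-cadherin gene, had 147 and 143 CPM with PD, 129.7 and 132 CPM with YZ9 and 178 and 97.4 CPM in controls. The 4 treated values for Cdh3 fell between the 2 controls. Differences from control in log2 CPM were 3.93 for PD and 4.43 for YZ9 in Cdh1, and 0.14 for PD and -0.01 for YZ9 in Cdh3. Cdh1 lies at chr8:106603351-106670246 and Cdh3 at chr8:106510891-106557297 on the plus strand of chromosome 8 in GRCm38, and Epcam at chr17:87635979-87651129.

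Both splicing regulators were low in controls. Esrp1, which promotes epithelial exons in transcripts such as that of Fgfr2, had 217 and 66 counts with PD, 249 and 127 with YZ9 and 1 and 6 in controls. Its paralog Esrp2 had 111 and 60 counts with PD, 92 and 40 with YZ9 and 48 and 11 in controls. For Esrp1 all treated libraries were above both controls, whereas for Esrp2 YZ9 replicate 2 lay below control replicate 1. Splicing itself was not analysed here, since the tables hold counts per gene.

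Among the transcription factor genes, Grhl3 and Grhl2 had different patterns across the inhibitors. Grhl3, a Grainyhead-like factor of surface epithelia, had 51.2 and 44.6 CPM with PD, 5.78 and 12.9 CPM with YZ9 and 6.22 and 3.31 CPM in controls. Both PD libraries were several-fold above all other libraries, and YZ9 replicate 1 lay between the 2 controls. Grhl2, the Grainyhead-like factor known to maintain Cdh1 expression, had 2.84 and 1.33 CPM with PD, 5.11 and 3.14 CPM with YZ9 and 0 and 0.527 CPM in controls, and here both YZ9 libraries lay above both PD libraries. Differences from control were 3.37 for PD and 0.91 for YZ9 in Grhl3 and 3.23 for PD and 4.24 for YZ9 in Grhl2. Elf3, an ETS factor of epithelia, had 209 and 81 counts with PD, 58 and 84 with YZ9 and 11 and 6 in controls, with all treated libraries above both controls. Grhl1 had 25 and 13 counts with PD, 20 and 10 with YZ9 and 0 and 4 in controls. The remaining factors stayed near the limit of detection: Ovol2, which represses mesenchymal genes, had 32 and 1 counts with PD, 23 and 4 with YZ9 and 0 and 0 in controls. Ovol1, its paralog, had 0 to 5 counts per library, and 19.8% and 17.0% of the exon bases of Ovol1 and Ovol2 are each shared with 1 gene on the opposite strand. Ehf, an ETS factor, had 0 to 16 counts per library. Grhl3 lies at chr4:135541888-135573630 and Grhl2 at chr15:37233036-37363569.

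**Figure D2:**
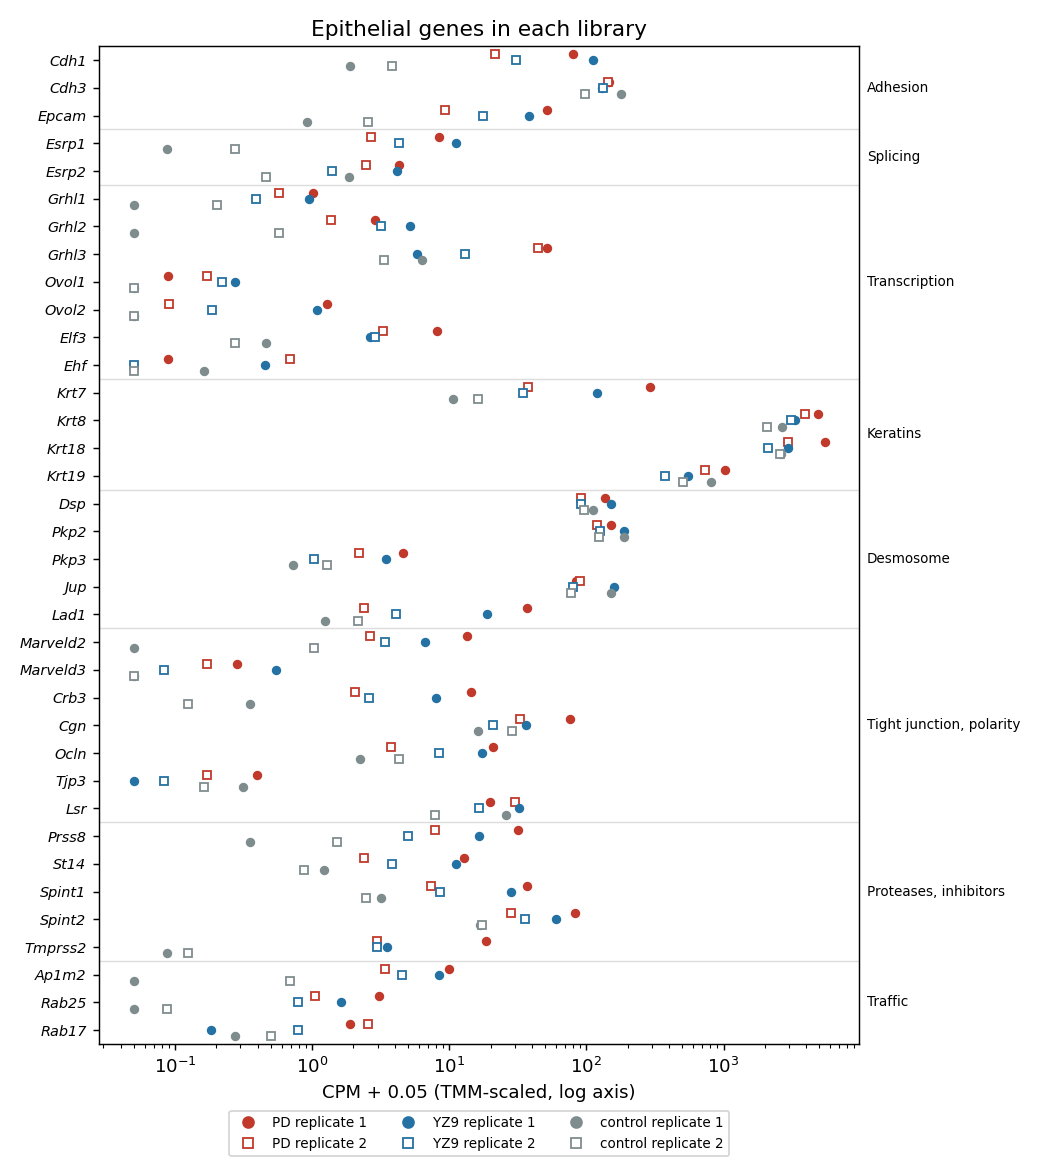
Level of each of the 36 genes in each of the 6 libraries, as TMM-scaled CPM plus 0.05 on a log axis, grouped by role; red is PD, blue YZ9 and grey control, with filled circles for replicate 1 and open squares for replicate 2. Cdh1, Epcam and Esrp1 show all treated libraries to the right of both controls, whereas Cdh3, Dsp, Pkp2 and Jup overlap between groups.

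Keratins were abundant in controls, apart from Krt7. Per kilobase of merged exon (RPKM, the CPM divided by the annotated exon length), Krt18 averaged 2921 with PD, 1767 with YZ9 and 1813 in controls, Krt8 averaged 2245 with PD, 1641 with YZ9 and 1215 in controls, and Krt19 474 with PD, 250.4 with YZ9 and 356 in controls, against 23.4 with PD, 10.9 with YZ9 and 1.90 in controls for Krt7. Krt8 and Krt18 encode partner keratins that pair into the filaments of simple epithelia. Krt8 had 4860.4 and 3931 CPM with PD, 3309 and 3119 CPM with YZ9 and 2684 and 2073 CPM in controls, so that both PD libraries were above both YZ9 libraries, which were above both controls. Krt18 had 5456 and 2940.4 CPM with PD, 2969 and 2110.1 CPM with YZ9 and 2615 and 2597 CPM in controls, with both PD libraries above both controls and YZ9 on either side of them. Krt19, a keratin of simple epithelia that also pairs with Krt8, had 1021 and 739 CPM with PD, 554 and 375 CPM with YZ9 and 816 and 505 CPM in controls, and its YZ9 libraries overlapped the controls. Krt7, a keratin of ducts and simple epithelia, had 292 and 37.3 CPM with PD, 119 and 34.5 CPM with YZ9 and 10.6 and 16.2 CPM in controls. For Krt7 all treated libraries exceeded both controls, and PD replicate 1 was 7.83-fold above PD replicate 2. Krt7, Krt8 and Krt18 lie on chromosome 15, at chr15:101411043-101430313, chr15:101996698-102004482 and chr15:102028180-102032027.

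In 3 of the 5 desmosome and anchoring genes the treated and control libraries overlapped. Dsp, which encodes desmoplakin, the link from desmosome to keratin filament, had 138 and 92.0 CPM with PD, 152 and 91.6 CPM with YZ9 and 112 and 96.5 CPM in controls. Pkp2, a plakophilin of the desmosomal plaque, had 152 and 118 CPM with PD, 189 and 126 CPM with YZ9 and 189 and 123 CPM in controls. Jup, which encodes plakoglobin, a protein of desmosomes and adherens junctions, had 83.8 and 89.3 CPM with PD, 159 and 80.0 CPM with YZ9 and 151 and 77.5 CPM in controls. In these genes the levels were alike across groups to within the replicate spread, and differences from control lay between -0.32 and 0.18 in log2 CPM. Pkp3, another plakophilin, had 119 and 53 counts with PD, 76 and 29 with YZ9 and 18 and 33 in controls, and only its PD libraries were both above the controls. Lad1, which encodes ladinin of the basement membrane zone, had 36.6 and 2.33 CPM with PD, 18.7 and 4.05 CPM with YZ9 and 1.20 and 2.11 CPM in controls. PD replicate 2 of Lad1 was just above control replicate 2, and PD replicate 1 was 15.7-fold above PD replicate 2.

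In the tight junction and polarity group, 4 of 7 genes had both PD libraries above both controls and 4 had both YZ9 libraries above them. The shares of all tested genes were 19.2% and 21.1%, and both counts include Marveld3, which had few reads. Ocln, which encodes occludin, had 20.7 and 3.70 CPM with PD, 17.3 and 8.33 CPM with YZ9 and 2.17 and 4.25 CPM in controls, and PD replicate 2 lay between the controls. Marveld2, which encodes tricellulin of contacts between more than a pair of cells, had 350 and 64 counts with PD, 148 and 99 with YZ9 and 0 and 26 in controls. Crb3, the Crumbs protein that marks the apical surface, had 373 and 50 counts with PD, 178 and 75 with YZ9 and 8 and 2 in controls. Cgn, which encodes cingulin, a link from tight junctions to the actin cytoskeleton, had 76.0 and 32.5 CPM with PD, 36.4 and 20.6 CPM with YZ9 and 16.1 and 28.6 CPM in controls, with PD above both controls and YZ9 overlapping them. Lsr, which encodes angulin-1 of tricellular junctions, had 19.8 and 30.2 CPM with PD, 32.3 and 16.4 CPM with YZ9 and 25.7 and 7.87 CPM in controls, with all groups overlapping, and 43.6% of its exon bases are shared with a gene on the opposite strand. Marveld3 had 0 to 11 counts and Tjp3, which encodes the scaffold ZO-3, 0 to 9 counts per library. Tjp3 was the only gene of the 36 with both YZ9 libraries below both controls, on counts of 0 and 1 with YZ9 against 7 and 3 in controls.

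All 5 genes of the protease group had every treated library above both controls, against 8.4% of tested genes, and they were chosen on these contrasts. Prss8 encodes prostasin, a membrane protease that acts with matriptase, the product of St14. Prss8 had 31.8 and 7.85 CPM with PD, 16.4 and 4.92 CPM with YZ9 and 0.300 and 1.47 CPM in controls. St14 had 12.8 and 2.33 CPM with PD, 11.1 and 3.74 CPM with YZ9 and 1.16 and 0.828 CPM in controls. Spint1 and Spint2 encode Kunitz-type inhibitors of matriptase. Spint1 had 37.1 and 7.29 CPM with PD, 27.9 and 8.47 CPM with YZ9 and 3.15 and 2.41 CPM in controls. Spint2 had 82.8 and 28.0 CPM with PD, 60.0 and 35.8 CPM with YZ9 and 16.7 and 17.3 CPM in controls. In each of these 4 genes replicate 1 was the higher of the 2 libraries of both inhibitors. Per length, mean RPKM of Spint2 was 12.2 with PD, 10.5 with YZ9 and 3.73 in controls, and that of St14 was 0.991 with PD, 0.972 with YZ9 and 0.130 in controls. Tmprss2, another membrane serine protease, had 480 and 72 counts with PD, 77 and 87 with YZ9 and 1 and 2 in controls. Among trafficking genes, Ap1m2, the epithelial subunit of the AP-1 adaptor that sorts cargo to the basolateral membrane, had 257 and 83 counts with PD, 188 and 132 with YZ9 and 0 and 17 in controls. Rab25, a GTPase of apical recycling endosomes, had 78 and 25 counts with PD, 35 and 22 with YZ9 and 0 and 1 in controls. Rab17, a related epithelial GTPase, had 48 and 62 counts with PD, 3 and 22 with YZ9 and 6 and 12 in controls, and its YZ9 libraries lay on either side of the controls.

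**Figure D3:**
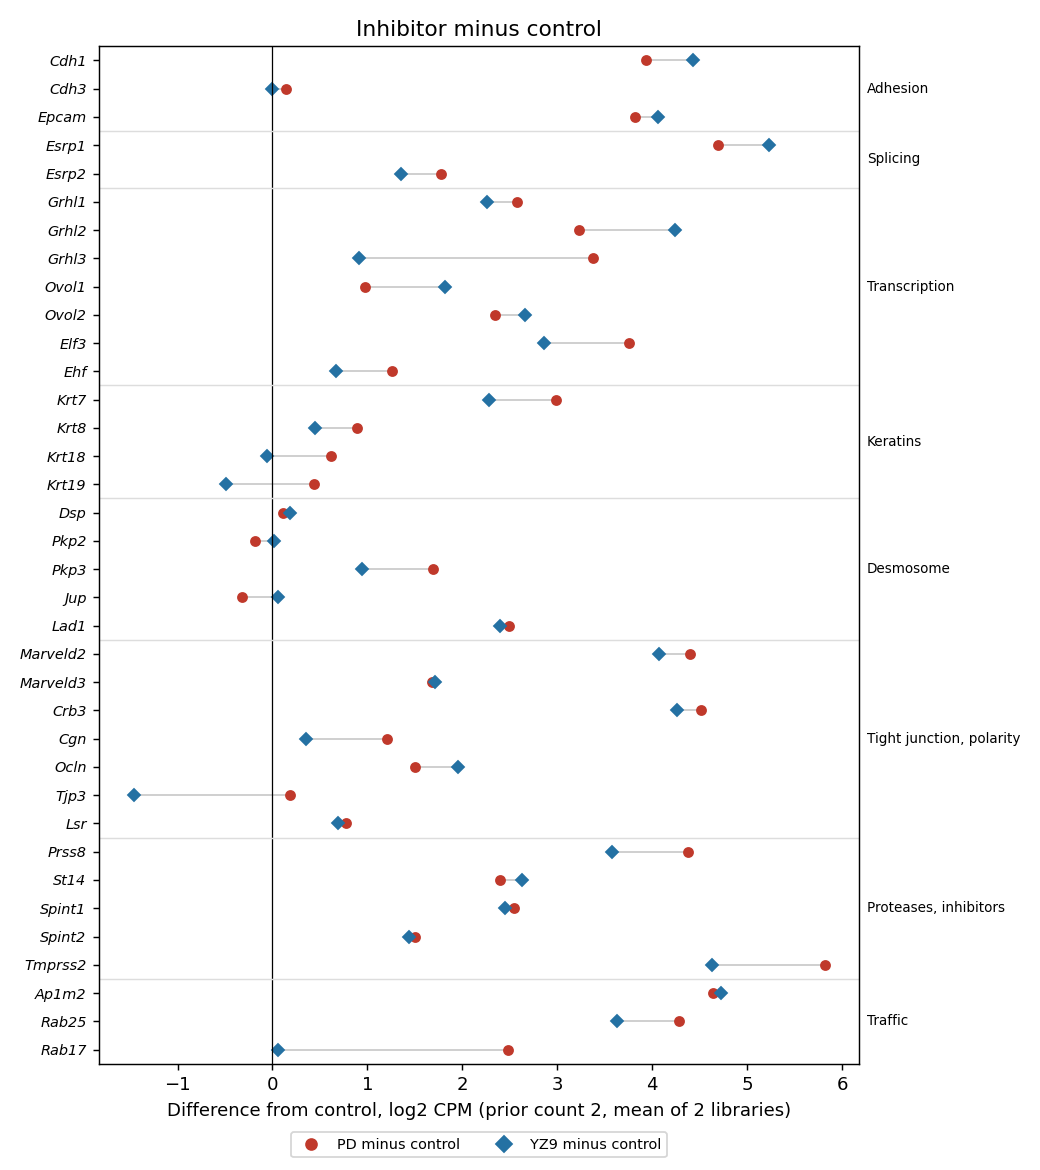
Difference from control in log2 CPM (prior count 2, means of 2 libraries) for each gene, with red circles for PD and blue diamonds for YZ9; the vertical line marks 0. Both differences share the same controls, and the genes were chosen on them. The largest gaps between circle and diamond among genes that passed the count filter are those of Grhl3 and Rab17.

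PD was set against YZ9 directly. The choice of genes did not use this contrast itself, but it rested on higher levels with both inhibitors. Such a choice can favour genes that are alike in both, so a lack of difference here is not independent of it. By edgeR's quasi-likelihood test with Benjamini-Hochberg adjustment over all 15568 genes, 0 of the 33 tested genes differed at an adjusted p under 0.05, where 19 genes of the whole table did (0.122%, with 12 higher in PD, 0.0771%, and 7 lower, 0.045%). DESeq2 called 1 of 32 (Grhl3), where it called 3.22% of all genes it tested, and limma-trend called 0 of 33. At an unadjusted p under 0.05, edgeR had 5 of 33, against 11.5% of all genes in either direction. All 5 were higher in PD, and the share of all genes by direction was not computed at this threshold. Grhl3 had the smallest p, at 47.9 ± 4.70 CPM with PD and 9.33 ± 5.02 CPM with YZ9 (n = 2 each, log2 fold change 2.36, SE 0.46, 95% interval 1.25 to 3.47, edgeR adjusted p = 0.152). Its adjusted p was 2.37e-05 with DESeq2, and over all 14 alternatives it ranged from 2.37e-05 to 0.392, with PD higher in each. Krt19 followed, at 880.1 ± 199.6 CPM with PD and 465 ± 127 CPM with YZ9 (log2 fold change 0.92, SE 0.30, 95% interval 0.196 to 1.65, edgeR adjusted p = 0.349). Rab17, Krt8 and Krt18 had log2 fold changes of 2.26, 0.45 and 0.73 (SE 0.84, 0.17 and 0.30, edgeR adjusted p = 0.397, 0.412 and 0.433).

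The width of the interval between the inhibitors differed among the junction genes. Cdh1 had a log2 fold change of -0.50 (SE 0.77, 95% interval -2.34 to 1.35, edgeR adjusted p = 0.855), an interval that holds differences of over 2-fold in either direction. This fit did not pair the libraries and counted the gap between replicates as spread. In replicate 1 Cdh1 had 79.8 CPM with PD and 113 with YZ9, and in replicate 2 it had 21.6 and 30.7 CPM. Epcam had an interval of -1.86 to 2.11. Those of Cdh3 (-0.503 to 0.796), Dsp (-0.789 to 0.619) and Pkp2 (-0.902 to 0.465) were narrower and held no difference of 2-fold or more. Both PD libraries lay above both YZ9 libraries in 7 of the 36 genes, against 21.6% of tested genes, and below them in 2, against 21.4%. The median difference over the 36 genes, PD minus YZ9, was 0.20 in log2 CPM, against -0.00822 over all genes tested. It was -0.34 without PD replicate 1 and -0.38 without YZ9 replicate 2, and 0.99 without PD replicate 2 and 0.91 without YZ9 replicate 1, so its sign rested on single libraries.

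**Figure D4:**
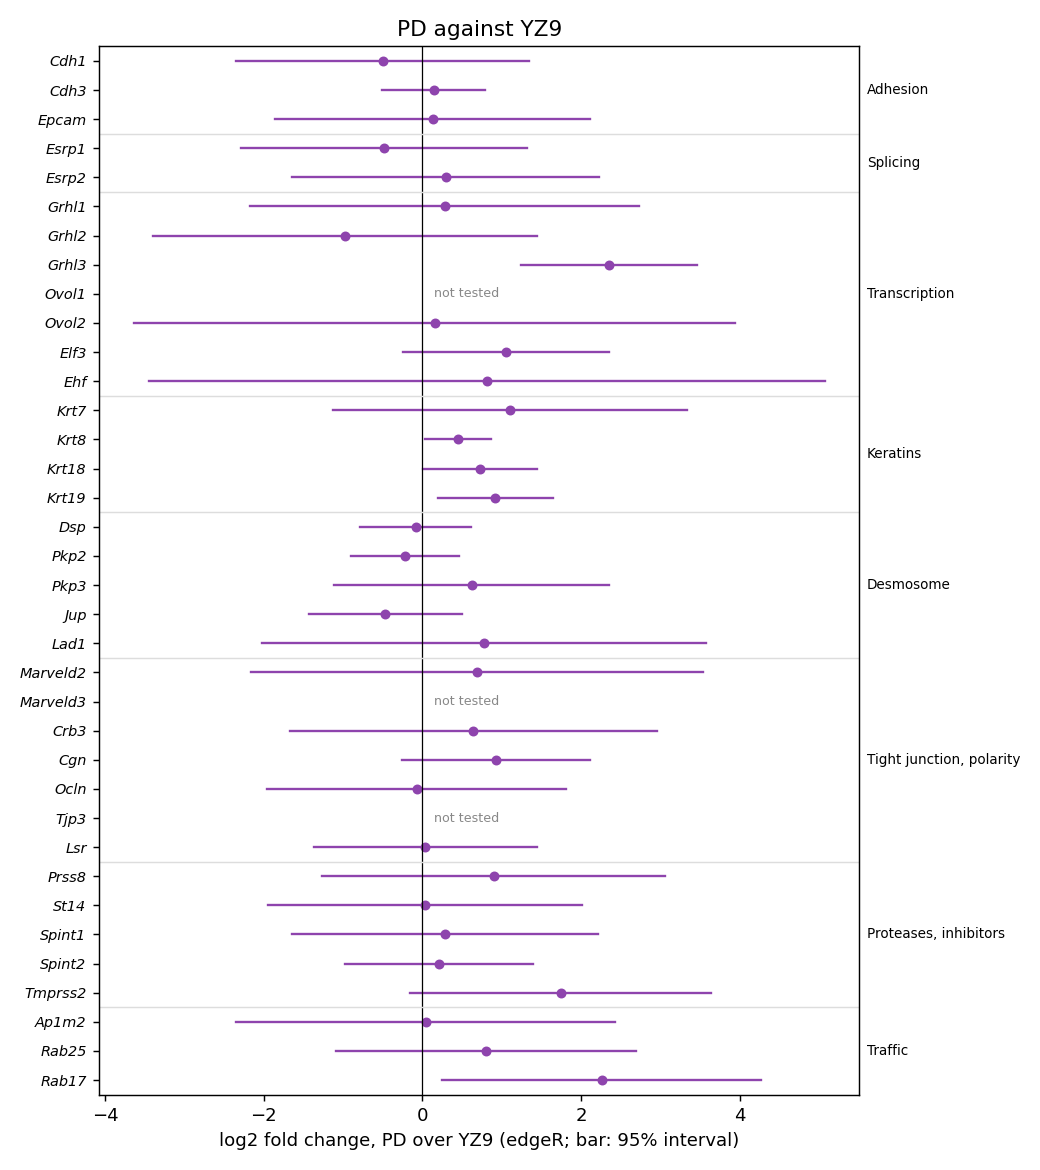
Log2 fold change of PD over YZ9 for the 33 tested genes, from edgeR, with bars for the 95% interval; positive values are higher in PD. The intervals of Grhl3, Rab17, Krt19, Krt8 and Krt18 lie above 0, and none of these genes passed the adjusted threshold.

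Within each inhibitor group the replicates differed in these genes, and in the same direction. Replicate 1 was above replicate 2 in 31 of 36 genes with PD and in 31 of 36 with YZ9, against 49.7% and 50.2% of all tested genes, and in 16 of 36 in controls (49.8% of tested genes). A gap of over 2-fold towards replicate 1 was found in 21 genes with PD (11.6% of tested genes), 17 with YZ9 (9.67%) and 13 with both (3.96%). These 13 were Cdh1, Epcam, Esrp1, Ovol2, Krt7, Pkp3, Lad1, Crb3, Ocln, Prss8, St14, Spint1 and Rab25. The opposite gap was found in 2 genes with PD (8.21%) and 3 with YZ9 (7.14%). In controls, replicate 2 was over 2-fold above replicate 1 in 11 genes (6.03%) and replicate 1 above replicate 2 in 5 (7.97%). Cdh1 had a ratio of replicate 1 to replicate 2 of 3.69 with PD and 3.67 with YZ9, and Spint1 of 5.10 with PD and 3.30 with YZ9. Grhl3 was outside this pattern, with ratios of 1.15 with PD and 0.448 with YZ9. A replicate with high values raises a gene's difference from control, so the choice of genes is not independent of these ratios.

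Other features moved with the replicate number. Counts of Xist were 2119 for the second PD library, 3956 for the second YZ9 library and 0 to 1 elsewhere, and Y-linked genes summed to 3 and 0 in those 2 libraries, against 4286 to 9736 in the others, so replicate 1 was male and replicate 2 female in both inhibitor groups, and both controls were male. The part of sex in the ratios was not tested, and replicate number and sex cannot be told apart within the inhibitor groups. PD replicate 1 also stood apart in genes of other tissues. The 14 visceral endoderm markers summed to 95.8 and 20.6 CPM with PD, 8.69 and 9.44 CPM with YZ9 and 7.68 and 12.8 CPM in controls, with Hnf4a at 0 in all libraries. Most of the PD sums came from Rbp4, at 51.9 and 8.77 CPM, and Afp, at 34.3 and 5.76 CPM. Of the 14 markers, 5 had both PD libraries above both controls, against 19.2% of tested genes. In 1, Trf, both PD libraries were below both controls, against 19.5%. The 11 definitive endoderm markers summed to 492 and 81.4 CPM with PD, 249.7 and 112 CPM with YZ9 and 34.0 and 31.8 CPM in controls, and Cldn6, itself a tight junction gene, gave most of this sum in the inhibitor libraries, at 449 and 56.5 CPM with PD, 199.7 and 75.5 CPM with YZ9 and 0.262 and 8.28 CPM in controls. Without Cldn6 the other 10 markers summed to 43.7 and 24.9 CPM with PD, 49.98 and 36.3 CPM with YZ9 and 33.7 and 23.5 CPM in controls, so the high sum of PD replicate 1 in this list rested on Cldn6. Of the 11 genes on this list, 3 had every inhibitor library above both controls, namely Cldn6, Foxa2 and Foxa1, against 8.4% of tested genes. Another 3, Hhex, Gsc and Pyy, had both PD libraries below both controls, against 19.5%, and 0 had both YZ9 libraries below them. Foxa2 had 169 and 79 counts with PD, 23 and 28 with YZ9 and 0 and 4 in controls. Foxa1 had 117 and 41 counts with PD, 14 and 37 with YZ9 and 4 and 6 in controls. Aldh1a2, a retinoic acid synthesis gene on the mesothelium list, had 1878 and 10 counts with PD, 25 and 19 with YZ9 and 7 and 2 in controls. The 7 measured mesothelium markers summed to 238 and 193 CPM with PD, 87.3 and 99.9 CPM with YZ9 and 90.7 and 69.3 CPM in controls. Of the 7, 5 had both PD libraries above both controls, against 19.2% of tested genes. Both PD sums of the mesothelium list were thus above all YZ9 and control sums, and Aldh1a2 was high in PD replicate 1 alone. Surface ectoderm and amnion markers summed to 155 and 99.2 CPM with PD, 171 and 126 CPM with YZ9 and 147 and 125 CPM in controls, with Krt5 at 0 to 5 counts. Perp and Gata3 gave most of these sums. Of the 10 markers, 2 had both PD libraries above both controls (Krt15 and Wnt6) and 3 below, against 19.2% and 19.5% of tested genes. With YZ9, 1 was above (Wnt6) and 1 below, against 21.1% and 24.5%. Wnt6 had 0.947 and 0.514 RPKM with PD, 7.64 and 4.77 RPKM with YZ9 and 0.120 RPKM in both controls. Trophoblast markers summed to 7.92 and 4.23 CPM with PD, 14.4 and 11.7 CPM with YZ9 and 16.7 and 8.92 CPM in controls, with Tpbpa at 0. Epiblast and neurectoderm markers summed to 5.19 and 11.3 CPM with PD, 8.37 and 13.7 CPM with YZ9 and 13.8 and 9.67 CPM in controls, with Sox1 at 0, and their ranges overlapped between the groups. Node and notochord markers summed to 6.96 and 5.88 CPM with PD, 1.52 and 2.80 CPM with YZ9 and 0.187 and 0.151 CPM in controls, with Noto at 0 to 1 counts, and Foxa2, which is also on this list, gave 6.50 and 3.18 CPM of the sums with PD, 1.03 and 0.944 CPM with YZ9 and 0 and 0.151 CPM in controls. The part of such cells in the epithelial levels was not tested. With PD replicate 1 left out, the median PD difference from control over the 36 genes was 1.37 in log2 CPM, a description of genes chosen on this contrast.

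**Figure D5:**
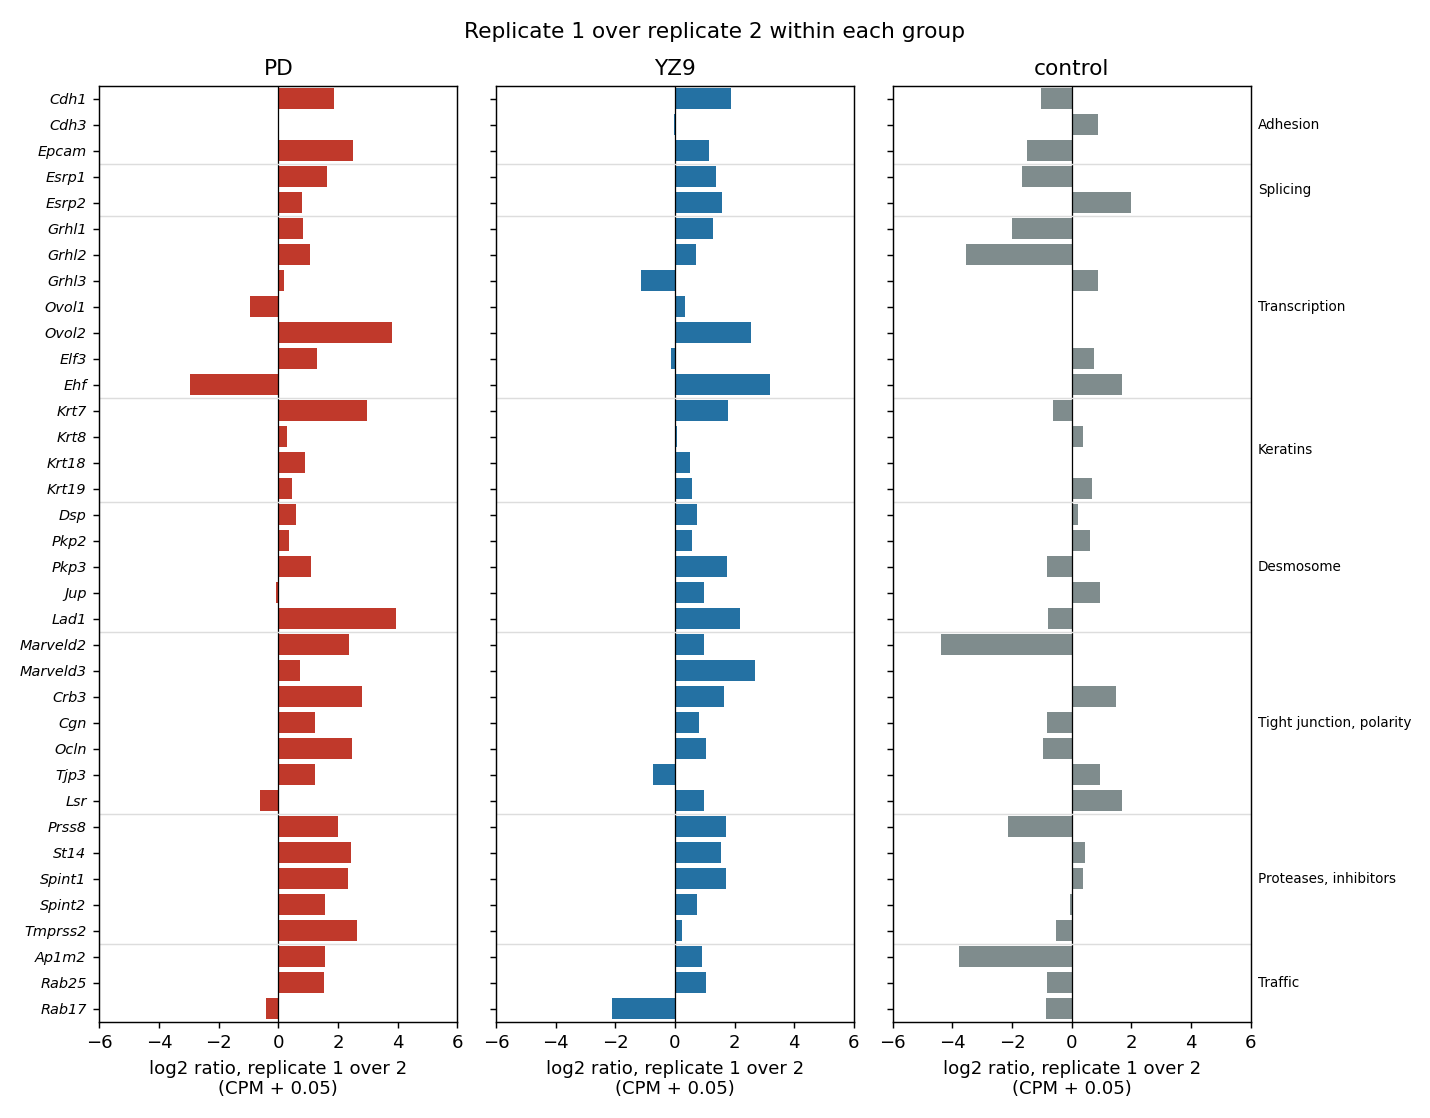
Log2 ratio of replicate 1 to replicate 2 for each gene (CPM plus 0.05) within PD, YZ9 and control; bars to the right are higher in replicate 1. Bars point right for 31 of 36 genes with PD and with YZ9, and for 16 of 36 in controls.

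The explants were also checked against their mesoderm label. The 16 mesoderm markers summed to 1179 and 2088 CPM with PD, 981 and 1558 CPM with YZ9 and 1431 and 1073 CPM in controls. Hand1, a factor of lateral and extraembryonic mesoderm, had 172 and 603 CPM with PD, 179 and 459 CPM with YZ9 and 242 and 125 CPM in controls, and Tbx20, a cardiac factor, had 109 and 241 CPM with PD, 75.0 and 136 CPM with YZ9 and 137 and 94.3 CPM in controls. T, Tbx6 and Mesp1, which define the streak and its earliest descendants, had 0 to 8 counts per library. Of the 16 markers, 8 were higher in replicate 2 than in replicate 1 of both inhibitor groups, Hand1 and Tbx20 among them. Another 4 were higher in replicate 1 of both (Kdr, Gata4, Meox1 and Twist1), and 4 differed in direction between the inhibitors. Gata4 had 32.8 and 17.3 CPM with PD, 36.1 and 31.2 CPM with YZ9 and 30.9 and 18.3 CPM in controls. The shares of all tested genes with these directions were not computed, so no shift of mesoderm genes is read from the counts. Mesoderm gene expression accompanied the keratin and junction transcripts in every library, treated or not.

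A wider list of 65 other genes of junctions, polarity, keratins and epithelial surfaces served as a comparison, 64 of them in the tables and 52 tested. With edgeR over all genes, 0 passed with PD against control and 0 with YZ9 against control, where 0.0964% and 0.00642% of all genes passed. At an unadjusted p under 0.05 the list had 9 of 52 genes higher and 0 lower with PD, against 5.42% and 5.38% of all genes, and 7 higher and 0 lower with YZ9, against 4.34% and 6.93%. DESeq2 called 5 with PD and 4 with YZ9, where it called 3.64% and 3.38% of all genes it tested. PD against YZ9 gave 0 by edgeR and 1 by DESeq2. At an unadjusted p under 0.05 it had 4 higher and 2 lower in PD, 6 of 52 beside the 11.5% of all genes. The median difference from control over the 64 genes was 0.19 with PD and 0.25 with YZ9 in log2 CPM. Both PD libraries lay above both controls in 19 of 64 genes and both YZ9 libraries in 20, beside the 19.2% and 21.1% of all tested genes. They lay below both controls in 4 with PD and 7 with YZ9, beside 19.5% and 24.5%. This list was chosen with earlier results of these data known, and its comparisons with control were added after the data were seen. They use the contrasts on which the 36 genes were chosen, so they are no independent evidence for that choice. The most abundant members of this list sit at junctions in many tissues. Ctnna1, the alpha-catenin that ties cadherins to actin, had 1065 and 838 CPM with PD, 745 and 812 CPM with YZ9 and 881 and 829 CPM in controls. Ctnnb1, beta-catenin, had 359 and 307 CPM with PD, 376 and 332 CPM with YZ9 and 346 and 351 CPM in controls. For Ctnnb1 the groups overlapped. For Ctnna1 both YZ9 libraries lay below both controls and below both PD libraries, with differences from control of 0.15 for PD and -0.14 for YZ9 in log2 CPM. Of all tested genes, 24.5% had both YZ9 libraries below both controls. Afdn, the afadin of nectin junctions, differed from control by -0.27 for PD and -0.04 for YZ9 in log2 CPM, and Nectin2, a nectin, by -0.42 for PD and 0.69 for YZ9. Prkci, the atypical protein kinase C of apical polarity, differed by 0.70 for PD and 0.20 for YZ9, and Pals1, a partner of Crumbs proteins, by 0.17 for PD and -0.13 for YZ9. Rbm47, a splicing factor of epithelia, had 91 and 24 counts with PD, 39 and 32 with YZ9 and 0 and 15 in controls. Ppl, which encodes periplakin of the desmosomal region, had 138 and 19 counts with PD, 40 and 25 with YZ9 and 0 and 0 in controls. Rbm47 and Ppl were picked after their values were seen.

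Repressors of epithelial genes and mesenchymal genes were read beside these values. Zeb2, a ZEB repressor that binds the CAGGTG E-box, had 66.5 and 75.1 CPM with PD, 62.6 and 50.8 CPM with YZ9 and 113 and 112 CPM in controls, with all treated libraries below both controls. Zeb1 had 55.5 and 36.4 CPM with PD, 56.6 and 70.3 CPM with YZ9 and 64.4 and 59.4 CPM in controls, and its groups overlapped for YZ9. Snai1 had 9.57 and 18.5 CPM with PD, 18.9 and 16.5 CPM with YZ9 and 25.1 and 12.5 CPM in controls, with all groups overlapping. Snai2 had 51.3 and 204 CPM with PD, 41.2 and 133 CPM with YZ9 and 60.6 and 52.7 CPM in controls, with replicate 2 of each inhibitor above all other libraries. Vim, the vimentin gene of mesenchymal filaments, had 849 and 763 CPM with PD, 853 and 547 CPM with YZ9 and 1283 and 1081 CPM in controls, and the 12 mesenchymal genes summed to 2363 and 2605 CPM with PD, 2324 and 1849 CPM with YZ9 and 3243 and 2754 CPM in controls. Vim and Fn1 gave most of each sum. Both PD libraries were below both controls in 4 of the 12 genes and both YZ9 libraries in 4, against 19.5% and 24.5% of tested genes. Both PD libraries were above both controls in 1 and both YZ9 libraries in 0, against 19.2% and 21.1%. That 1 gene was Pdgfra, at 74.2 and 92.3 CPM with PD and 25.1 and 18.0 CPM in controls. These contrasts were not tested for the 12 genes.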

How the data were processed

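Total RNA from mouse mesoderm explants was sequenced after a low-input template-switching preparation, per the labels' protocols. Per the submitters' processing notes, CASAVA 1.8.2, STAR 2.7.9a and DESeq2 1.40.1 were used with GRCm38; no counting tool or annotation release is given. The deposited tables hold whole-number counts per gene and library. The authors' normalized columns are a signal in which counts are divided by a size factor per library, and their log2 fold changes, Wald score and p-values, deposited beside the counts, were not used. The control columns match between the tables, and the columns were merged to 6 libraries.

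Genes were filtered with filterByExpr (minimum count 10, minimum total 15), leaving 15568, and TMM-scaled. Groups were compared with edgeR 4.0.16 in R 4.3.3 (quasi-likelihood test with legacy settings, 6 libraries in 1 fit, 2-sided, Benjamini-Hochberg over all genes, threshold 0.05, common dispersion 0.101). SE is |log2 fold change| divided by the root of the F statistic. Alternatives used limma 3.58.1 (prior count 3), DESeq2 1.42.0, other scaling and filters, 4 libraries alone, a replicate block and each library left out. On simulated data for PD against YZ9 over 15568 genes, the test recovered 8.96% of 67 genes changed 2-fold, 70.1% of 67 changed 4-fold and 90.9% of 66 changed 8-fold, with 5 false calls. The changed genes were drawn from those with a mean count of at least 50. The recovered shares thus do not cover tested genes with fewer counts, here Rab25, Rab17, Grhl1, Ovol2 and Ehf. They are given by fold change alone and not by the spread between libraries. That spread varied among the genes described here, with an edgeR SE of 0.17 in Krt8, 0.77 in Cdh1 and 1.19 in Marveld2. The shares therefore do not give the chance of detecting a change in these genes, and a lack of calls among them is not read as a lack of difference. Libraries of a group were distinct (chi-square per degree of freedom 90.7 with PD, 58.4 with YZ9 and 51.9 in controls, where sampling alone gives about 1), so over all tested genes they differed by more than sampling. For genes with few counts, depth limits the precision as well. The spread behind each p-value is that of these libraries. Within each inhibitor group they differed in sex, so they came from different embryos and their spread is not technical alone. For the controls, both male, it may be technical.

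Positions and exon lengths come from GENCODE M21 (GRCm38). Exons of 13 of the 36 genes overlap genes on the opposite strand, and whether the counting used strand is not given in the sources used here. The genes and lists were chosen with earlier results of these data known. Values per library were given for genes with a mean of at least 5 CPM and counts for others, some chosen after their values were seen. Of the wider list, up to 6 genes were named by mean level. The comparisons of that list with control were added after the data were seen. 1 gene of that list is not reported here.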

Additional observations from a re-analysis of the deposited data

How the results depend on the processing

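In PD against YZ9, 0 of the genes tested (28 to 34 of the 36) were called in 12 of 14 alternatives. Without a filter 3 of 36 were called (Grhl3, Krt19 and Krt18, adjusted p = 1.17e-04, 0.0117 and 0.0395), and with DESeq2 1 of 32 (Grhl3). Over all genes the count of 19 became 601 without a filter, 518 with DESeq2, 34 with limma-trend, 29 with edgeR's newer fit (added after the data were seen), 12 with the replicate block and 0 in the 4 PD and YZ9 libraries alone (1539 at an unadjusted p under 0.05). It ranged from 0 to 35 when 1 library was left out, with 0 without either control, 7 without YZ9 replicate 2 and 35 without PD replicate 1. With the replicate block, 0 of the 33 tested genes were called. The block treated replicate numbers alike in all groups, although both controls were male, and no fit included sex. Replicate deviations of PD and YZ9 correlated at 0.346 across genes, those of PD and control at -0.0961 and those of YZ9 and control at 0.149, so the numbers were not taken to pair the libraries.

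Of the wider epithelial list, 6 genes were called without a filter and 5 with DESeq2 in PD against control, 4 and 4 in YZ9 against control, and 3 and 1 in PD against YZ9; leaving out 1 library gave 0 to 2 in PD against control, the 2 without PD replicate 2. The median difference from control ranged over the settings run from 1.37 (without PD replicate 1) to 2.86 for PD and from 1.41 (without YZ9 replicate 1) to 2.63 for YZ9. The genes were chosen on these contrasts, so that the medians stay above 0 is no sign of stability.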
